A study of Sus scrofa with 10 samples.

Results

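The genes described here are 10 transcription factors of the pluripotency network, POU5F1, SOX2, NANOG, SALL4, KLF4, KLF5, KLF17, TFCP2L1, TBX3 and DPPA2, chosen by name out of 24358 genes in RNA sequencing of pig morulae. Of these, 6 were listed under their own name. POU5F1, NANOG, KLF4 and DPPA2 were listed by identifier only, and were recognised from the gene description in the same row, whose NCBI gene number carries that symbol in RefSeq. Each name had 1 row, and the 10 genes had 12 listed isoforms of 47421 in all. The embryos came from matured oocytes that received an injected siRNA (a short RNA that silences its target), were then activated parthenogenetically and grew to morulae, the stage of compaction that precedes the blastocyst. The DDB1_KD group (5 libraries) received siRNA against DDB1, and the NC group (5 libraries) a non-specific siRNA. All embryos of both groups were therefore injected parthenotes with no paternal genome. Neither the number of embryos per library nor separate cultures are given in the labels, so the spread behind each p-value is that between libraries and may be partly technical. The series title names lineage differentiation among the processes under study, and the levels of these factors bear on that part of the comparison.

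Pluripotency is the capacity of the inner cells of the early embryo to form all tissues of the body. It rests on a network of DNA-binding factors centred on OCT4 (encoded by POU5F1), SOX2 and NANOG, which bind many of the same enhancers and maintain one another's expression. Around this core stand SALL4, the Krüppel-like factors, TFCP2L1 and TBX3, which reinforce it in mouse embryonic stem cells, and DPPA2, which binds chromatin together with DPPA4 and acts on genes of the early embryo. At the morula stage some of these factors are shared by cells that later separate into inner cell mass and trophectoderm, the outer layer that forms the placenta.

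Library totals ran from 32466912 to 50911295 estimated counts, with 13522 to 14755 genes detected. The siRNA target DDB1, which links substrates to CUL4 ubiquitin ligases, was lower in every DDB1_KD library (0.920 to 1.55 FPKM, fragments scaled by gene length and library size) than in any NC library (2.53 to 4.44 FPKM). Markers of other lineages differed between libraries. The mean level of 12 trophectoderm markers was 1.98 log2 CPM (log2 of counts scaled to a common library size) in DDB1_KD replicate 2 and 4.84 to 6.81 in the other 9 libraries. The mean level of 21 maternal oocyte transcripts was 5.11, 4.80 and 4.75 log2 CPM in DDB1_KD replicates 2, 3 and 5, above every NC library (2.49 to 4.46), and 1.94 in DDB1_KD replicate 1, below every NC library. Of the markers of cells that could accompany oocytes, 2 of 15 cumulus cell genes and 0 of 10 fibroblast genes reached a mean of 1 FPKM. The cumulus cell genes AMH, FSHR, INHA and NR5A1 were at 0 counts in all libraries, a level that 3 counts per library would still allow. Summed levels of the cumulus list were 3.62 to 22.6 FPKM in DDB1_KD and 6.18 to 46.6 FPKM in NC, most of it follistatin, FST. Of 9 blood cell genes, 6 reached a mean of 1 FPKM. Among them, CD74 had a mean of 65.4 FPKM in DDB1_KD and 78.1 FPKM in NC, and HBB reached 9.97 FPKM at most. CD14, CD68, LCP1 and CORO1A had group means of 0.786 to 2.15 FPKM. The leukocyte gene PTPRC reached 0.05 FPKM at most.

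All 10 factors were detected in all 10 libraries, at levels that spanned more than 2 orders of magnitude. DPPA2 was the highest at a mean of 124 FPKM over the 10 libraries, which placed it at rank 549 of 24358 genes. It was followed by POU5F1 (70.1 FPKM, rank 858), KLF4 (35.9 FPKM, rank 1384), KLF5 (34.7 FPKM, rank 1422) and SALL4 (21.9 FPKM, rank 1929). TBX3 (14.2 FPKM, rank 2469) and KLF17 (10.2 FPKM, rank 3052) were intermediate. NANOG (3.27 FPKM, rank 5530), SOX2 (1.03 FPKM, rank 8380) and TFCP2L1 (0.797 FPKM, rank 9012) were the lowest. Ranges of neighbours in this order overlapped for all 9 pairs. KLF4 exceeded KLF5 in 4 of 10 libraries and SOX2 exceeded TFCP2L1 in 6 of 10, so these 2 pairs had no order. DPPA2 exceeded POU5F1 in 7 of 10 libraries, and the other 6 pairs kept their order in 8 or 9 of 10. FPKM divides by the length of the gene model, and the models differ. The row of SOX2 is a single exon of 6357 bases, whereas RefSeq lists SOX2 as 960 bases in the same assembly, and the models of POU5F1 and NANOG hold 1083 and 915 bases. The place of SOX2 in the order therefore depends on its model. RefSeq places SOX2 at 119668476 to 119669435 on chromosome 13, and most of the exon lies outside that stretch. Counts from outside it also enter the comparison between groups, and their share is not known.

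**Figure D1:**
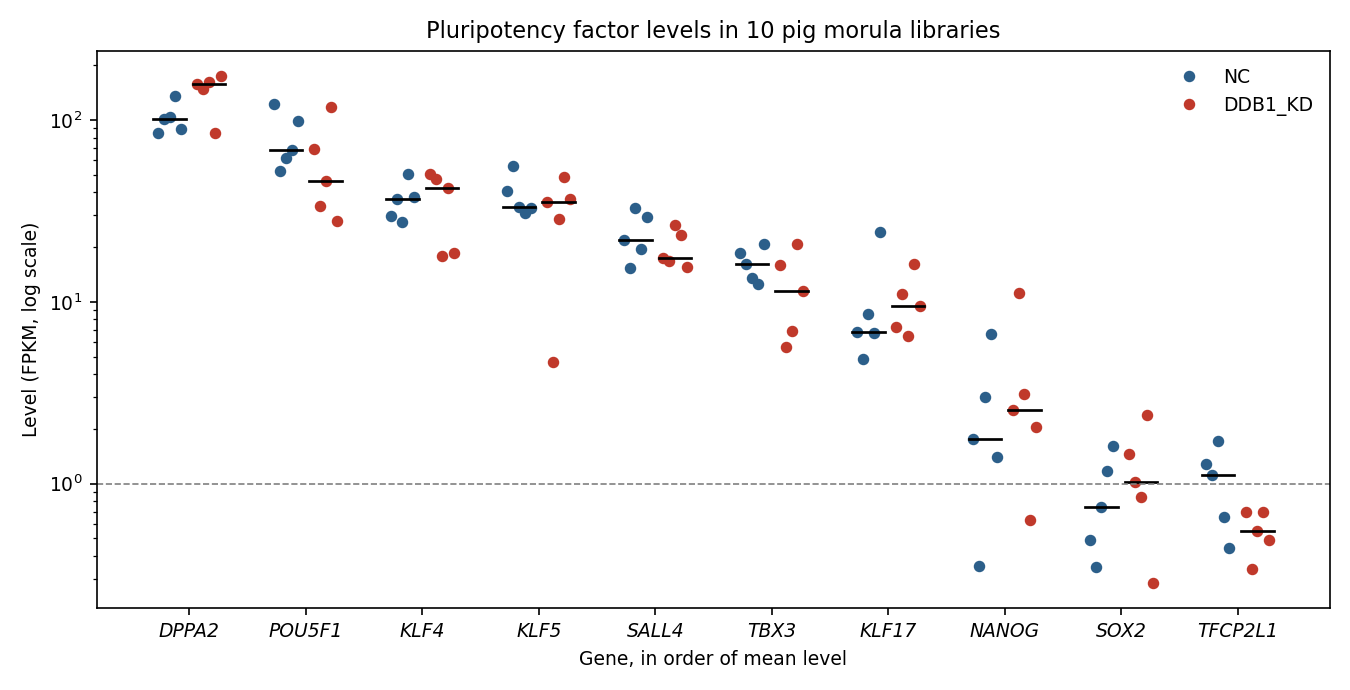
Level of each factor in FPKM (log axis) in the 5 NC libraries (blue) and the 5 DDB1_KD libraries (red), replicates 1 to 5 from left to right within each group, with a black bar at the group median and a dashed line at 1 FPKM, the mean level required for the test. The groups overlap for every gene, and the single low red point of KLF5 is DDB1_KD replicate 2 at 4.68 FPKM.

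None of the factors passed the comparison of DDB1_KD with NC. Of the 10, 9 had a mean of at least 1 FPKM and were tested together with all other such genes, and 0 of 9 had an adjusted p under 0.05. Over all 8476 genes tested, 0% passed (edgeR, quasi-likelihood, Benjamini-Hochberg adjustment). At an unadjusted p under 0.05 in edgeR there were 0 of the 9 factors and 245 of all genes (2.89%, with 1.76% higher and 1.13% lower in DDB1_KD). The unadjusted p of DPPA2 was 0.054 in edgeR, 0.053 in limma and 0.042 in DESeq2. In DESeq2, 353 of 8476 genes had an unadjusted p under 0.05. DESeq2 passed 2 genes (0.0236%) and limma 0 (0%), none of them among these factors. DDB1 itself, at rank 1 of 8476 by p, did not pass in edgeR (adjusted p = 0.977) or limma (adjusted p = 0.969). It was 1 of the 2 genes that passed in DESeq2 (adjusted p = 0.0069). The fitted value was lower in DDB1_KD for 6 factors and higher for 3, with a median log2 fold change of -0.07, where the median over all genes tested was 0.00. The 9 factors had an adjusted p of 0.977 to 0.999 in edgeR. The FPKM values of the groups overlapped for 10 of 10 factors, and the share of tested genes without overlap was 0.413% (0.224% lower and 0.189% higher in DDB1_KD). The design left wide intervals, so the absence of a call does not show that levels were alike. The narrowest 95% interval of the log2 fold change was that of SALL4, from -0.72 to 0.25, and the widest that of NANOG, from -1.17 to 2.26.

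**Figure D2:**
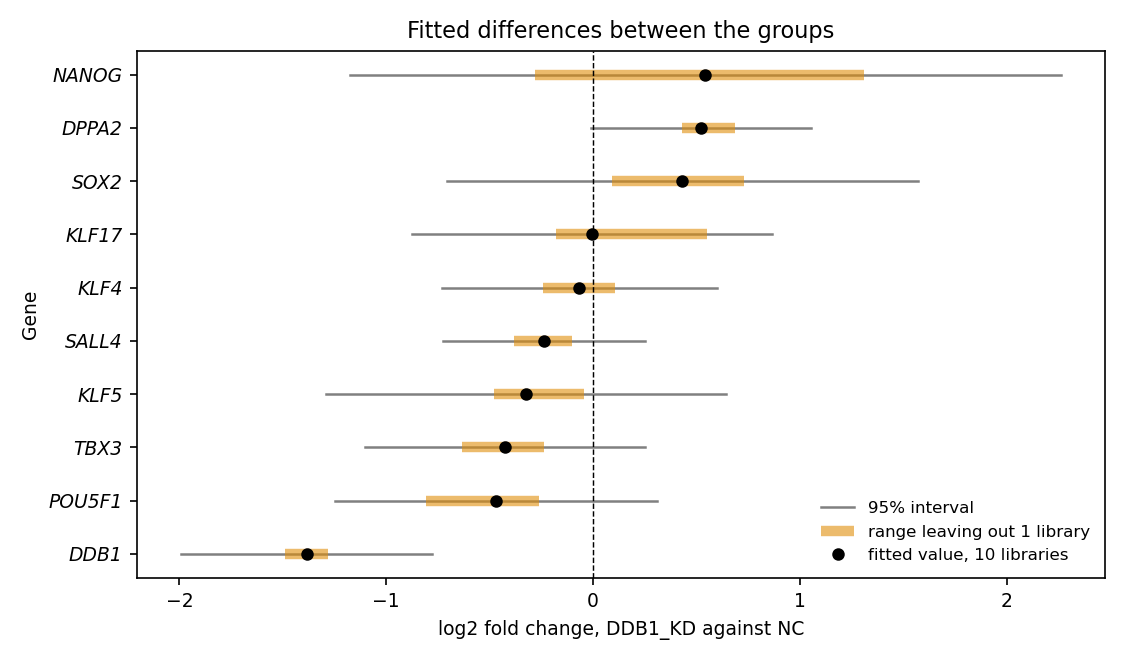
Fitted log2 fold change of DDB1_KD against NC (x axis) for the 9 tested factors and DDB1 (y axis), with black points for all 10 libraries, grey lines for the 95% interval of edgeR's fit and orange bars for the range when 1 library was left out. The intervals of all 9 factors include 0, that of DPPA2 by the smallest margin (-0.01 to 1.05), while that of DDB1 (-1.99 to -0.78) does not. These intervals are not adjusted for the number of genes tested, and DDB1 did not pass in edgeR after adjustment.

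POU5F1 encodes OCT4, the POU homeodomain factor without which the inner cells of the mouse blastocyst do not become pluripotent. The gene (ENSSSCG00000001393) spans chromosome 7, 23564908 to 23570600 (minus strand) in the susScr11 build, with 5 exons. Its level was 69.5, 33.6, 46.5, 119 and 27.8 FPKM in DDB1_KD replicates 1 to 5 and 123, 52.3, 62.1, 68.6 and 98.7 FPKM in NC replicates 1 to 5. DDB1_KD replicates 2, 3 and 5 lay below all NC libraries, whereas replicates 1 and 4 lay within the NC range. These 3 low libraries were the ones with maternal transcripts above the NC range, and their mitochondrially encoded genes took 16.8%, 16.4% and 24.4% of counts, against 12.2% in each of replicates 1 and 4 and 8.58% to 18.4% in NC. The part of either difference in the POU5F1 level was not tested. Fewer cells that express a gene and less RNA per cell cannot be told apart in such bulk samples. The fitted log2 fold change was -0.47 (SE 0.36).

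SOX2, the HMG-box partner of OCT4 on composite enhancer sites, had low FPKM values throughout. These values depend on its gene model of 6357 bases. The gene (ENSSSCG00000037485) spans chromosome 13, 119663183 to 119669539 (plus strand). SOX2 stood at 1.45, 1.02, 0.842, 2.39 and 0.286 FPKM in DDB1_KD replicates 1 to 5 (91 to 518 counts per library over both groups) and at 0.491, 0.346, 0.743, 1.17 and 1.60 FPKM in NC. The DDB1_KD libraries held both the highest and the lowest of the 10 values, an 8.35-fold span within 1 group. The log2 fold change was 0.43 (SE 0.52), and 0.09 without DDB1_KD replicate 4. SOX2 passed the filter with a mean just over 1 FPKM.

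NANOG, the homeodomain factor that marks the epiblast in later embryos, varied most. The gene (ENSSSCG00000040403) spans chromosome 5, 62932575 to 62939035 (plus strand), with 4 exons. Its values were 2.55, 11.2, 3.12, 0.633 and 2.05 FPKM in DDB1_KD and 1.75, 0.354, 3.0, 6.62 and 1.39 FPKM in NC, from 15 to 452 counts. The span was 17.7-fold within DDB1_KD and 18.7-fold within NC. DDB1_KD replicate 2 lay above every NC library, and the other 4 DDB1_KD libraries, from 0.633 to 3.12 FPKM, lay within the NC range. The within-group SD of log2 CPM, 1.47, exceeded that of 94.8% of tested genes and of 94.5% of 3305 genes within 2-fold of its level. The log2 fold change was 0.54 (SE 0.79), and -0.28 without DDB1_KD replicate 2. RefSeq lists a second NANOG locus of 1159 bases on chromosome 1 (169064134 to 169065292), within THSD4, which has no row of its own here. Reads from the 2 loci may have been assigned to either, and the NANOG values are uncertain to that extent.

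SALL4, a zinc finger factor that acts beside the core and recruits histone deacetylase complexes, had the smallest within-group SD of log2 CPM of the 9 factors. The gene (ENSSSCG00000007479) spans chromosome 17, 53079636 to 53103023 (minus strand), with 4 exons. It was measured at 17.4, 16.8, 26.5, 23.3 and 15.6 FPKM in DDB1_KD and at 21.8, 15.3, 33.0, 19.5 and 29.3 FPKM in NC. All 5 DDB1_KD values lay within the NC range. That SD was 0.360, below the median of all tested genes (0.511), and the log2 fold change was -0.24 (SE 0.23). A small RNA model on the other strand (RF00001) overlaps it, with 4 counts at most in any library.

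The Krüppel-like factors bind GC-rich promoter elements and showed 3 different patterns. KLF4, which can help reprogram somatic cells, spans chromosome 1, 248604822 to 248609718 (minus strand; ENSSSCG00000005437). Its levels were 50.7, 47.5, 17.8, 42.3 and 18.5 FPKM in DDB1_KD and 29.7, 36.8, 27.6, 50.3 and 37.7 FPKM in NC. DDB1_KD replicates 3 and 5 were below every NC library and replicate 1 was above every NC library, with a log2 fold change of -0.07 (SE 0.31) that was 0.11 without NC replicate 4.

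KLF5 supports both pluripotent cells and trophectoderm in the mouse, and spans chromosome 11, 45369575 to 45388299 (plus strand; ENSSSCG00000035101). It had 35.5, 4.68, 28.5, 48.4 and 36.8 FPKM in DDB1_KD and 40.5, 55.6, 33.2, 30.9 and 32.9 FPKM in NC. DDB1_KD replicate 2, the library with the lowest trophectoderm markers, stood far below the other 9, which covered 28.5 to 55.6 FPKM. The log2 fold change was -0.32 (SE 0.45), and -0.04 without that library.

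KLF17, a factor of the human naive epiblast, spans chromosome 6, 167176834 to 167188418 (minus strand; ENSSSCG00000024191). KLF17 was at 7.30, 11, 6.53, 16.2 and 9.54 FPKM in DDB1_KD and at 6.86, 4.82, 8.54, 6.74 and 24.3 FPKM in NC. All DDB1_KD values fell within the NC range, whose upper end was set by NC replicate 5. Because of that library the group means were nearly equal, 10.1 ± 3.83 FPKM (SD, n = 5) for DDB1_KD against 10.2 ± 7.94 FPKM (SD, n = 5) for NC, although 4 of 5 DDB1_KD libraries exceeded the NC median of 6.86 FPKM. The log2 fold change was -0.0047 (SE 0.40), and 0.55 (SE 0.29) without NC replicate 5. Its sign was positive under 9 of 14 other settings of scaling, filter or tool, so no direction can be given.

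TFCP2L1, a CP2-family factor that acts downstream of LIF and STAT3 in mouse stem cells, was the only factor below the filter and was not tested. The gene (ENSSSCG00000015732) spans chromosome 15, 30072291 to 30131067 (plus strand). Levels were 0.702, 0.341, 0.546, 0.694 and 0.490 FPKM in DDB1_KD and 1.28, 1.11, 1.72, 0.656 and 0.441 FPKM in NC, from 27 to 107 counts. All 5 DDB1_KD libraries lay below the NC median of 1.11 FPKM, but NC replicates 4 and 5 fell among them. With the filter lowered to a mean of 0.5 FPKM its log2 fold change was -0.88 (SE 0.50, adjusted p = 0.982 in edgeR). All of its counts were assigned to the 12-exon isoform ENSSSCT00000033811, and the 14-exon isoform ENSSSCT00000017132 had 0 counts in all 10 libraries, again with up to 3 counts in each allowed.

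TBX3, a T-box repressor that sustains self-renewal in mouse stem cells, was positively correlated with POU5F1 (r = 0.74 over the 10 libraries). Without DDB1_KD replicate 2, r was 0.63. The gene (ENSSSCG00000009865) spans chromosome 14, 37583279 to 37598665 (plus strand). Its level was 16.0, 5.66, 6.93, 20.7 and 11.5 FPKM in DDB1_KD and 18.6, 16.1, 13.5, 12.6 and 20.9 FPKM in NC. DDB1_KD replicates 2, 3 and 5 were again below all NC libraries, and replicates 1 and 4 within their range. The log2 fold change was -0.43 (SE 0.31), and -0.24 without DDB1_KD replicate 2.

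TBX3 was the only factor with counts on more than 1 isoform, and the balance between its isoforms differed widely between libraries. ENSSSCT00000010813 has 8 exons and 6449 bases, and ENSSSCT00000030119 has 6 exons and 5986 bases. The 6-exon isoform held 86.5%, 18.9%, 26.2%, 18.8% and 28.8% of TBX3 counts in DDB1_KD replicates 1 to 5 and 63.2%, 55.7%, 29.5%, 51% and 32.3% in NC. DDB1_KD replicate 1 was thus above all NC libraries, and the other 4 were below all of them. The mean share was 35.8% ± 28.7 (SD, n = 5) in DDB1_KD against 46.3% ± 14.8 (SD, n = 5) in NC, with p = 0.444 in an exact permutation test over 252 groupings (two-sided). Without DDB1_KD replicate 1, an alternative chosen after seeing the data, the DDB1_KD mean was 23.2% ± 5.12 (SD, n = 4). The fitted log2 fold change of the 6-exon isoform was -0.65 (SE 0.65), and -1.59 (SE 0.46, adjusted p = 0.999 in edgeR) without that library. For the 8-exon isoform it was -0.26 (SE 0.46). Of all 11250 isoforms tested, 1 passed (0.00889%, with 378 at an unadjusted p under 0.05), and it belonged to none of these factors. The isoforms overlap in position on the same strand, so the division of counts between them is less certain than their sum.

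**Figure D3:**
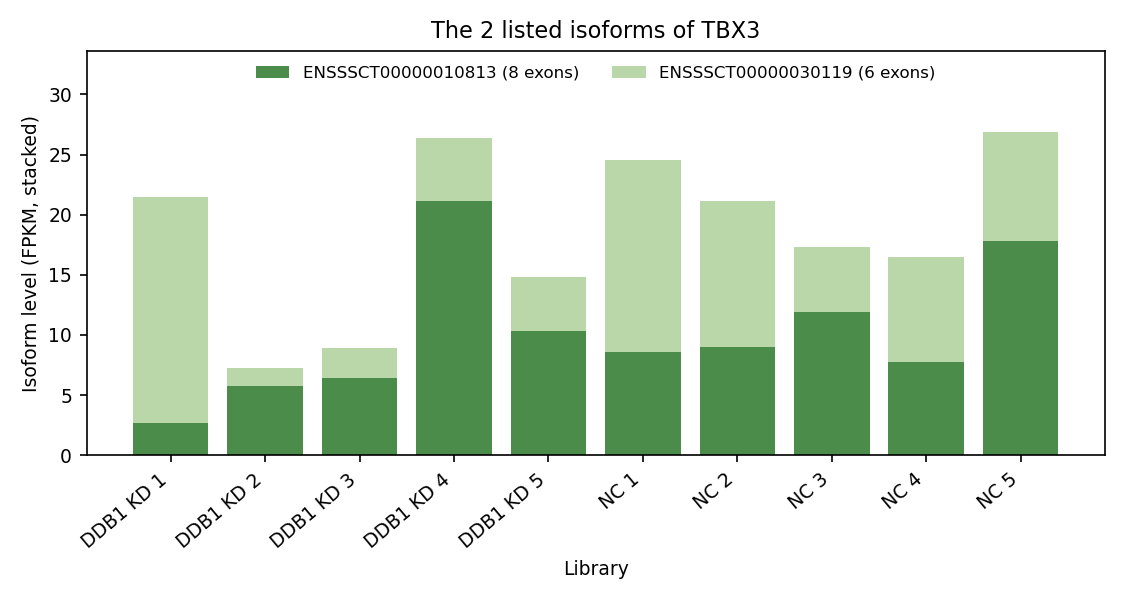
FPKM of the 2 listed TBX3 isoforms (y axis, stacked bars) in each library (x axis), dark green for the 8-exon and light green for the 6-exon isoform. The 6-exon isoform holds most of the bar in DDB1_KD replicate 1 (18.8 of the 2 isoforms' FPKM, against 2.72 for the other), and bars exceed the gene's own FPKM because that value was computed over a longer gene length of 8112 bases.

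DPPA2 had the smallest p of the 9 factors, at rank 274 of 8476 genes. The gene (ENSSSCG00000031524) spans chromosome 13, 150186763 to 150204369 (plus strand), with 7 exons. It was measured at 157, 149, 163, 84.7 and 175 FPKM in DDB1_KD and at 84.8, 101, 104, 136 and 89.5 FPKM in NC. Of the DDB1_KD libraries 4 lay above every NC library, and replicate 4 was the lowest of all 10. The log2 fold change was 0.52 (SE 0.24), between 0.43 and 0.69 when any 1 library was left out, and it did not pass. Counts were high, from 15756 to 47232, so depth did not limit this value.

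Across the libraries the factors did not move as 1 block. Of the 36 pairs among the 9 tested factors, 21 had a positive and 15 a negative correlation of log2 CPM over the 10 libraries (Pearson r from -0.75 to 0.79, median 0.09). These correlations are descriptions without a p, over libraries that share the siRNA groups and the scaling. TBX3 was positively correlated with POU5F1 (r = 0.74, Spearman's rho = 0.83). Their r was 0.72 without the 2 libraries farthest from the POU5F1 median, and 0.63 without DDB1_KD replicate 2. TBX3 and KLF5 had r = 0.79 (rho = 0.55), but r = 0.43 without DDB1_KD replicate 2, so that relation leaned on this library. DPPA2 and NANOG ran against these genes. DPPA2 was inversely correlated with POU5F1 (r = -0.75, rho = -0.77) and r was -0.70 without the 2 farthest libraries. NANOG was inversely correlated with KLF5 (r = -0.72, rho = -0.77) and with TBX3 (r = -0.72, rho = -0.79), with r = -0.59 and r = -0.57 without the 2 libraries farthest from the NANOG median. The core factors themselves were not aligned, with r = 0.45 for POU5F1 and SOX2, 0.13 for SOX2 and NANOG and -0.43 for POU5F1 and NANOG. Within groups, after subtraction of the group means, these 3 values were 0.63, 0.09 and -0.39.

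**Figure D4:**
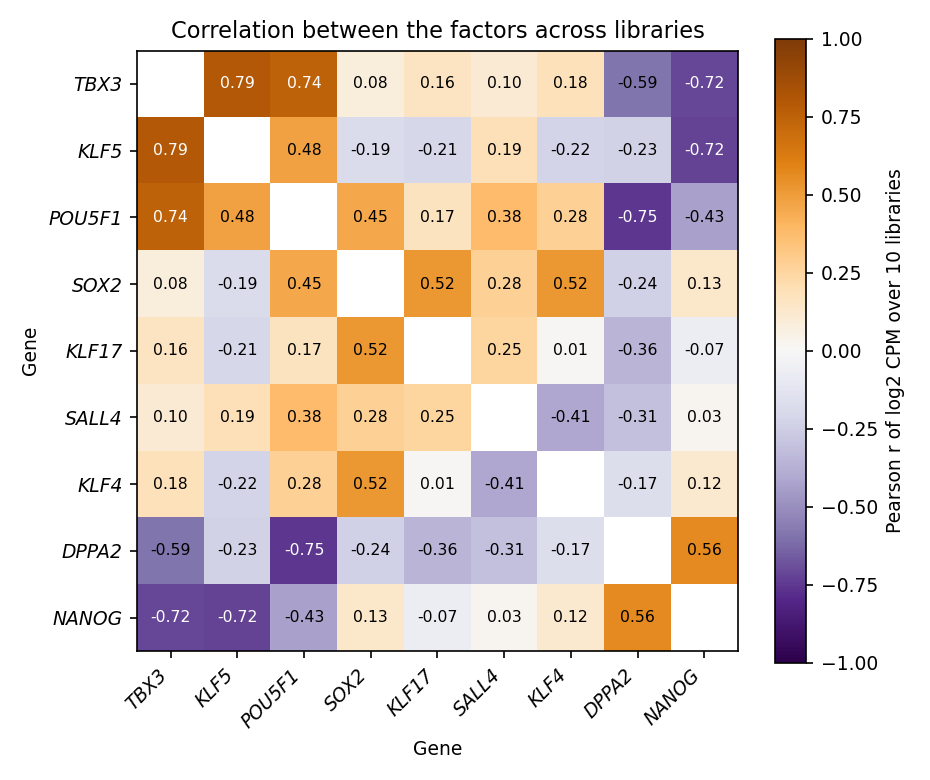
Pearson r of log2 CPM over the 10 libraries for each pair of the 9 tested factors, orange for positive and purple for negative values, with genes on both axes. TBX3 is positively correlated with KLF5 (0.79) and POU5F1 (0.74), the 0.48 of POU5F1 and KLF5 becomes -0.03 without DDB1_KD replicate 2, and each of the 3 is negatively correlated with NANOG and DPPA2 (-0.75 to -0.23).

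The opposed behaviour of these genes went with the lineage markers. The mean of the trophectoderm markers was correlated with TBX3 (r = 0.90, rho = 0.83) and inversely with NANOG (r = -0.69, rho = -0.78) and DPPA2 (r = -0.47, rho = -0.79). Without DDB1_KD replicate 2 and NC replicate 1, the 2 libraries farthest from the median of these markers, the values were 0.85, -0.65 and -0.77. KLF5 had r = 0.94 (rho = 0.72) with the trophectoderm mean, and 0.54 without those 2 libraries. POU5F1 had r = 0.67 (rho = 0.75), and 0.42 without them. With the mean of the maternal transcripts TBX3 had r = -0.75 (rho = -0.77) and POU5F1 r = -0.72 (rho = -0.72), at -0.74 for both without DDB1_KD replicates 1 and 2. KLF4 had r = -0.62 (rho = -0.50) with the maternal mean, and -0.85 without those 2 libraries. For SALL4 the correlation with the maternal mean was -0.0041. Whether the maternal or trophectoderm levels had a part in the differences between groups was not tested.

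**Figure D5:**
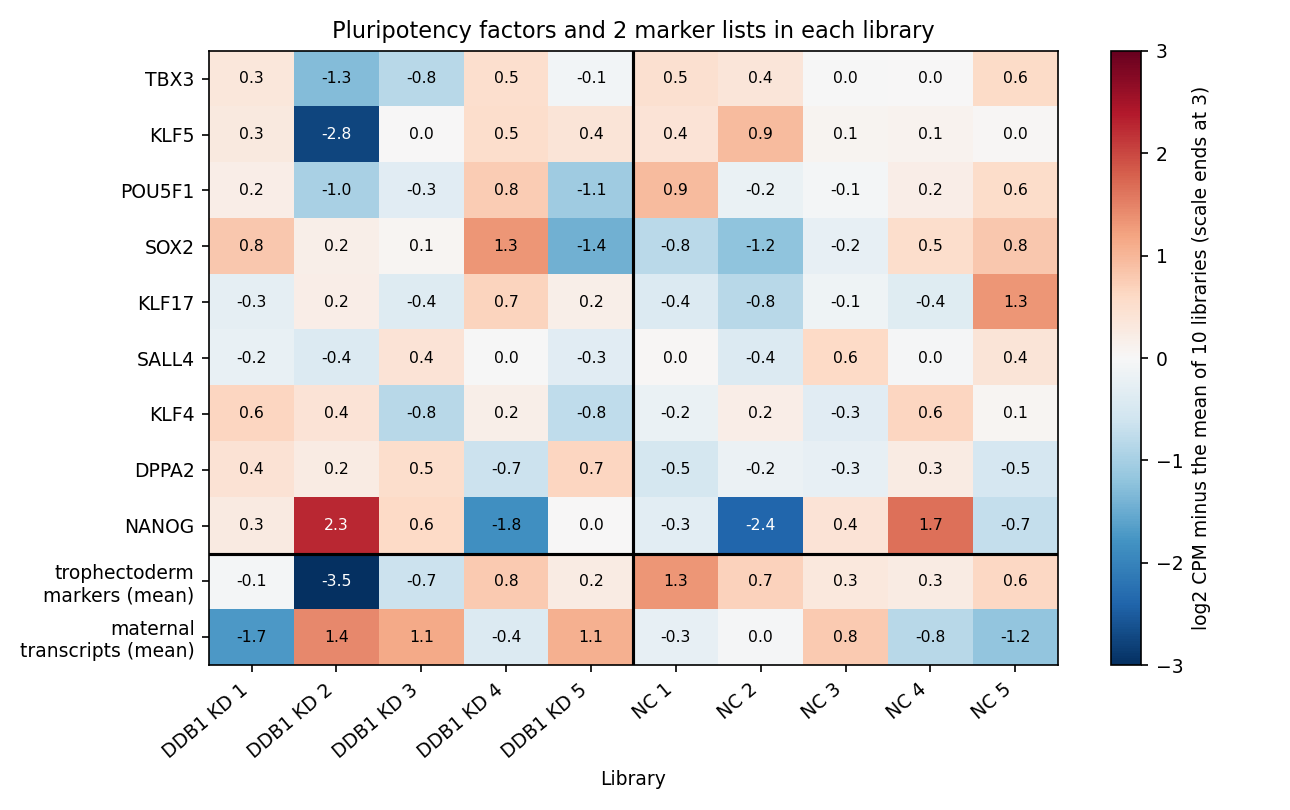
Log2 CPM of the 9 tested factors and the mean of 2 marker lists (y axis) in each library (x axis), each row after subtraction of its mean over 10 libraries, red above and blue below. DDB1_KD replicate 2 combines the lowest KLF5, TBX3 and trophectoderm values with the highest NANOG and maternal values, and DDB1_KD replicate 4 is high in POU5F1 and SOX2 and low in DPPA2 and NANOG.

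The genes most like each factor over the 10 libraries were taken from the 2 with the highest Pearson r of log2 CPM among all other tested genes. These are the largest of many values over 10 libraries, and no p is given. NANOG was followed by TMOD4, a tropomodulin (r = 0.93), and TDGF1, the Nodal co-receptor (r = 0.93). POU5F1 was followed by FKBP8 (r = 0.97) and MRPL23 (r = 0.97), SOX2 by ILF2 (r = 0.96) and HIF1AN (r = 0.95), and TBX3 by GLA (r = 0.97). DPPA2 was followed by RHEB (r = 0.95) and MIS12 (r = 0.95), SALL4 by DHRS4 (r = 0.92) and PSMC3IP (r = 0.91), and KLF17 by DNPEP (r = 0.96) and UBE2F (r = 0.93). KLF4 was followed by SIAE (r = 0.94) and COX19 (r = 0.93). KLF5 was followed by the DNA demethylase TET1 (r = 0.98) and by SCPEP1 (r = 0.97), but without the 2 libraries farthest from the KLF5 median these were 0.54 and -0.0026.

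Genes that act with these factors were described through lists. Of 40 other transcription and chromatin factors of the network, 37 were in the table and 19 were tested, with 7 higher and 12 lower fitted values in DDB1_KD, 0 passed and a median log2 fold change of -0.09. The 4 with the smallest p were SOX15, a relative of SOX2 (-0.52, SE 0.34), MYC (-0.96, SE 0.68), DPPA5 (0.87, SE 0.62) and the nuclear receptor ESRRB (-0.34, SE 0.30). DPPA5, an RNA-binding protein of pluripotent cells, was at 0.15 without DDB1_KD replicate 2. MYC was at -0.67 without that library.

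Of 33 genes listed as cofactors of OCT4, SOX2 or NANOG, 31 were tested, with 12 higher and 19 lower, 0 passed and a median of -0.10. NFYA, a subunit of the CCAAT-binding factor, averaged 2.83 ± 0.839 FPKM (SD, n = 5) in DDB1_KD against 1.69 ± 0.259 FPKM (SD, n = 5) in NC, a fitted difference of 0.75 on the log2 scale (SE 0.25). HDAC1, a deacetylase of the NuRD complex, averaged 8.54 ± 3.17 FPKM (SD, n = 5) against 15.4 ± 6.23 FPKM (SD, n = 5), a difference of -0.82 (SE 0.34). Its relative HDAC2, on the same list, was higher, at a mean of 39.3 FPKM in DDB1_KD and 41.7 FPKM in NC. The fitted difference of HDAC2 was -0.11 (SE 0.24). For the corepressor CTBP2 the difference was -0.61 (SE 0.31) and for HCFC1 -0.41 (SE 0.30). For all of these genes the values of the groups overlapped.

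Among 40 ligands, receptors and transducers that feed the network, 23 were tested, with 13 higher and 10 lower, 0 passed and a median of 0.03. AXIN1, a scaffold of the WNT pathway, was fitted at -0.76 (log2, SE 0.34) and its paralog AXIN2 at -0.83 (SE 0.47). GDF3, a ligand of the Nodal family, stood at 0.67 (SE 0.33) and its transducer SMAD2 at 0.79 (SE 0.39). FGF4, NODAL and LIF were below the filter, at 0.32, 0.31 and 0.07 FPKM at most.

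Of 58 genes listed as relatives of the 10 factors by family or name, 53 were in the table and 9 passed the filter. DPPA5 is on this list for its name and is no paralog of DPPA2. Fitted values were higher for 4 and lower for 5 of them, 0 passed, and the median was -0.01. SOX15 and DPPA5 were again among the 4 with the smallest p, with KLF16 (-0.65, SE 0.53) and the TFCP2L1 relative UBP1 (0.57, SE 0.54). UBP1 was at 0.30 without DDB1_KD replicate 5 and at 1.255 without NC replicate 2. KLF2, the partner of KLF4 in mouse stem cells, reached 0.27 FPKM at most. Lineage markers of the morula gave 20 of 21 maternal transcripts higher in DDB1_KD (median 0.84, led by ZP4 at 2.02, SE 0.66), 10 of 12 trophectoderm markers lower (median -0.92) and 4 of 5 primitive endoderm markers lower (median -0.12). Over all 8476 genes tested, 4240 were higher in DDB1_KD. The maternal and trophectoderm genes varied together between libraries, with a within-group SD of their median level of 1.01 and 1.07 log2 CPM. Their counts of higher and lower genes are therefore not counts of independent genes. None of the markers passed. Without DDB1_KD replicate 2 the maternal median was 0.51 and ZP4 was at 1.298. The trophectoderm median was -0.41 without NC replicate 1, and the primitive endoderm median turned to 0.08 without NC replicate 5 and was -0.30 without DDB1_KD replicate 4.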

How the data were processed

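RNA of 10 pig morula libraries was measured, 5 DDB1_KD and 5 NC, grouped and numbered by sample title. The authors' deposited tables give FPKM and estimated counts per gene and isoform, per the file headers. Deposited FPKM is 0.0001 where the count is 0. The submitters' processing notes name the build susScr11 and, with no role or version, HISAT2, StringTie, fastp, edgeR, HOMER and ChIPseeker. Estimated counts are whole numbers and followed FPKM times isoform length for 100% of counts above 0 (within 1.5 counts plus 0.5%), so their error may not be that of read counts, and any limit drawn from them covers counting error alone. The use of strand in counting is not stated in those sources. Symbols came from the table for 17451 genes, Ensembl names for 951 and RefSeq for 719 (Sscrofa11.1), and 5237 kept an identifier.

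Genes or isoforms with a mean of at least 1 FPKM (8476 and 11250) were fitted with edgeR 4.0.16 (glmQLFit, glmQLFTest, TMM scaling, group alone) in R 4.3.3, with Benjamini-Hochberg adjustment at 0.05. SEs and 95% intervals come from the unshrunken coefficient and the F statistic. DESeq2 1.42.0 and limma 3.58.1 were run beside it. The fits were tested on simulated counts drawn independently for each gene, a setting that these data need not share. Log2 CPM used a prior count of 2. Depth was 32466912 to 50911295 counts. Python 3.11.15, pandas 2.3.3 and matplotlib 3.10.9 were used for the rest.

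Named are the 10 factors, DDB1, the 4 genes with the smallest p of each pathway list, up to 3 of each lineage list and the 2 genes most like each factor. Some genes that this rule names are not reported here. FGF4, NODAL, LIF, KLF2, HDAC2, THSD4, RF00001 and the marker genes of other cells were named after their values were seen. The factors and lists were chosen with earlier results of these data known. Alternatives covered scaling, filter, tool, pseudocount, variance model, mitochondrial genes, the replicate number as a block and each library left out in turn.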

Additional observations from a re-analysis of the deposited data

Results flagged for a closer look

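Over 22 groups of 5 libraries (the 10 factors and the TBX3 isoform share, in each siRNA group), 2 held a library whose gap to its nearest neighbour was more than 0.71 of the group's range. Chance sets apart about 1 in 20 such groups. KLF5 in DDB1_KD replicate 2 was at 4.02 log2 CPM, where the other 4 DDB1_KD libraries were at 6.78 to 7.30, a gap of 0.842 of the range. In the same library the mean of the trophectoderm markers was 1.98 log2 CPM, the lowest of all 10, and their part in the KLF5 value was not tested. The share of TBX3 counts on the 6-exon isoform in DDB1_KD replicate 1 was 86.5%, where the other 4 DDB1_KD libraries were at 18.8% to 28.8%, a gap of 0.851 of the range. That library also had the lowest maternal transcript mean, 1.94 log2 CPM, and a part of it in the isoform share was not tested.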

How the results depend on the processing

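No factor passed in any of 124 values under other settings or 90 with 1 library left out (smallest adjusted p = 0.469, in any tool run). DESeq2 passed 2 genes where edgeR passed 0. Isoforms that passed numbered 68 with DESeq2, 0 with the filter at 0.5 FPKM, 0 without a filter and 0 with the replicate block, and 0 to 2 with 1 library left out, against 1. The sign of KLF17, -0.0047, turned to 0.016 with DESeq2's size factors in edgeR, 0.012 with the filter at 0.5 FPKM, 0.016 in DESeq2, 0.13 and 0.16 in limma (pseudocounts 1 and 0.1), 0.18 in limma voom with weights, 0.0016 with filterByExpr, 0.0022 without mitochondrial genes and 0.18 with the replicate block. With 1 library left out KLF17 ranged from -0.18 to 0.55, NANOG from -0.28 (DDB1_KD replicate 2 left out) to 1.31 (NC replicate 4 left out), KLF4 from -0.24 (without DDB1_KD replicate 1) to 0.11, POU5F1 from -0.81 to -0.26, SALL4 from -0.38 to -0.10, KLF5 from -0.48 to -0.04 and TBX3 from -0.63 to -0.24. The list medians ranged from -0.19 to 0.0059 for network factors, -0.14 to 0.0081 for cofactors, -0.08 to 0.08 for signals and -0.13 to 0.13 for relatives of the factors, so these have no stable sign. Same-numbered libraries were not consistently alike (correlations of same-numbered deviations from -0.14 to 0.35, 1 of 5 highest with its own number). The labels do not say whether the numbers pair libraries. So few correlations between libraries that vary widely cannot settle it. With the replicate block 0 genes passed, and the values of POU5F1, TBX3 and DPPA2 were -0.58, -0.56 and 0.50. The medians of all genes moved by less than 0.1 under every setting. Depth limits NANOG (15 to 452 counts) and TFCP2L1 (27 to 107 counts) most.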

Other observations

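The deposited table annotates 127 genes to the KEGG pathway of signals that regulate pluripotency, a list chosen after seeing the data. It holds 4 of the 10 factors, POU5F1, SOX2, KLF4 and TBX3. Of the 127 genes 62 were tested, with 29 higher and 33 lower fitted values in DDB1_KD, 0 passed and a median log2 fold change of -0.02 (-0.10 to 0.04 with 1 library left out).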
